A study of Mus musculus with 4 samples.

Results

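The genes described here are the chemokines, their receptors and the NF-kB pathway with its inflammatory outputs. All were measured in mouse brown adipocytes expressing an shRNA against the long noncoding RNA Blnc1 or a scrambled shRNA. They were taken by name: every gene whose symbol begins Ccl, Cxcl, Ccr or Cxcr with a number or begins Nfkb, the genes Rel, Rela and Relb, and a set of cytokines, receptors and effectors known to act with them. This gave 70 genes of the 17097 that have a probe set with a single gene symbol, each read from its brightest probe set. Il1rl1, C3 and Nfkb1 have no probe set named in the platform annotation and were not analysed here. The samples were 2 arrays of brown adipocytes expressing an shRNA against Blnc1 (shBlnc1) and 2 of brown adipocytes expressing a scrambled shRNA (scramble), labelled as biological replicates and all harvested after 6 days of differentiation. No strain, culture source, number of hairpins or clones and no inflammatory stimulus is given in the labels. All values are the deposited log2 expression values. Values at or below 2.55, the highest reading of the control probe sets with no matching transcript, are called at background.

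Chemokines are small secreted proteins that draw leukocytes toward a tissue, and they are grouped by the spacing of their first cysteines into the CC and CXC families. They act on receptors that are found mostly on leukocytes. NF-kB is a family of dimeric transcription factors that is held in the cytoplasm by IkB proteins. Signals from Toll-like, interleukin-1 and tumour necrosis factor receptors lead to IkB breakdown, and the freed dimers then switch on chemokines, cytokines, adhesion molecules and several of their own inhibitors. In fat tissue, fat cells and their precursors are among the known sources of chemokines and acute phase proteins.

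The cells carried fat cell transcripts in both groups. Adipoq and Fabp4 read 11.75 or above on all 4 arrays, and the other 3 of 5 brown adipocyte markers were called lower in shBlnc1 cells: Cidea 4.02-fold, Ucp1, the uncoupling protein of brown fat, 3.64-fold and Cox8b 1.84-fold (limma adjusted p = 0.000291, 0.00103 and 0.00225). Signs of RNA quality also differed between the groups. For Actb, the control probe set at the 3' end exceeded that at the 5' end by 1.77 and 1.88 log2 units on the shBlnc1 arrays, against 0.99 and 1.15 on the scramble arrays. For Gapdh that difference was 0.34 and 0.40 on the shBlnc1 arrays, against 0.09 and 0.04 on the scramble arrays. A probe set for 18S ribosomal RNA read 6.64 and 7.01 on the shBlnc1 arrays, against 5.13 and 4.43 on the scramble arrays. The part of these differences in the values below was not tested. The labels do not say whether replicates came from separate cultures beyond calling them biological, so p-values measure the spread between these arrays. No probe set is named Blnc1, so the target itself was not analysed here.

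Upstream sequences of 5 genes show where the NF-kB consensus lies in genes that the results turn on: an inhibitor and a chemokine that were not called, a growth factor that was called, and the 2 genes with the largest rises. Each is the 250 bases before the annotated start in RefSeq (build GRCm38.p6), 5′ to 3′ on the strand of the gene, with every match to the NF-kB consensus motif, on either strand, in capitals. The motif was the 10-base pattern GGGRNNYYCC, where R is A or G, Y is C or T and N is any base. No mismatch was allowed, so stretches that differ from it at any base stay in lower case.
Nfkbia, chr12:55492648-55492897, minus strand: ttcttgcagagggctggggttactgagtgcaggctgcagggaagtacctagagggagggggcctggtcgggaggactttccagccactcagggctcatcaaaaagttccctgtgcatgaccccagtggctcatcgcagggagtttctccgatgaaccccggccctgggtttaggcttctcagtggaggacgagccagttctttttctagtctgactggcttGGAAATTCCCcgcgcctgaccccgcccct
Cxcl10, chr5:92348890-92349139, minus strand: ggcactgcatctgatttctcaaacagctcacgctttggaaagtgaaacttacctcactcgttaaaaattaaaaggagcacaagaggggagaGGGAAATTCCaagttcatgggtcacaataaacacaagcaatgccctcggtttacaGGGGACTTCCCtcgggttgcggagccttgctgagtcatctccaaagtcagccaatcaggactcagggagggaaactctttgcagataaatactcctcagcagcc
Csf1, chr3:107760470-107760719, minus strand: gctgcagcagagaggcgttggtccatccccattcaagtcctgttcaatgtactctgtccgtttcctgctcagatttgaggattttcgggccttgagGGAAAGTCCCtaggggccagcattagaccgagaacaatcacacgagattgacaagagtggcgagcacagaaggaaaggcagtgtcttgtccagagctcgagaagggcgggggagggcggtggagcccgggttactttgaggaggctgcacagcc
Cxcl9, chr5:92328080-92328329, minus strand: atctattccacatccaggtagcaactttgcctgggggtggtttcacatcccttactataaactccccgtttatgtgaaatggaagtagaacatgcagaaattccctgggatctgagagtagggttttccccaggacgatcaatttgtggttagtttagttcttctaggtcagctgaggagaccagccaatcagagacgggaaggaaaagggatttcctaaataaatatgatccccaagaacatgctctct
Saa3, chr7:46715677-46715926, minus strand: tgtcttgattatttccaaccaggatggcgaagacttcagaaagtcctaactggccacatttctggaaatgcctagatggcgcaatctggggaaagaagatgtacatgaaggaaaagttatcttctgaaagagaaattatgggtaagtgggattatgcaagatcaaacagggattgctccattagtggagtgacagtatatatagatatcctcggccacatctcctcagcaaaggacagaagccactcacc

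Most of the 70 genes did not pass the test, and the share that did was near that of all genes. An adjusted p under 0.05 by limma (called, below) was reached by 11 of the 70 genes (15.7%), while 18.5% of all 17097 genes were called. Higher in shBlnc1 cells were 9 of them (12.9%, against 11.4% of all genes), and lower were 2 (2.86%, against 7.18%). The 9 higher genes were Saa3, Cxcl9, Cxcl12, Csf1, Ccl5, Tnfrsf1b, Il1rn, Ccl2 and Tnfrsf1a, and the 2 lower genes were Ccl19 and Cxcl17. The median log2 fold change over the 70 genes was -0.01, beside -0.04 over all genes. In these bulk samples, fewer cells that express a gene and less RNA per cell cannot be told apart.

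Much of the family was at the bottom of the scale. In both groups 23 of the 70 genes were at background, among them Il6, Il33, Cxcl1, Cxcl2, Cxcl5, Ptgs2 and Icam1. Above background in at least 1 group were 47 genes, of which 11 were called (23.4%, against 24% of the 12887 such genes in all). Of the 47, 19.1% were higher and 4.26% lower, against 14.9% and 9.05% of the 12887. The arrays of the groups did not overlap for 37 of the 70 genes, and for 62.6% of all genes. With 2 arrays a group, the standard error of a log2 fold change lay between 0.0978 and 0.215 among the 70 genes.

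**Figure D1:**
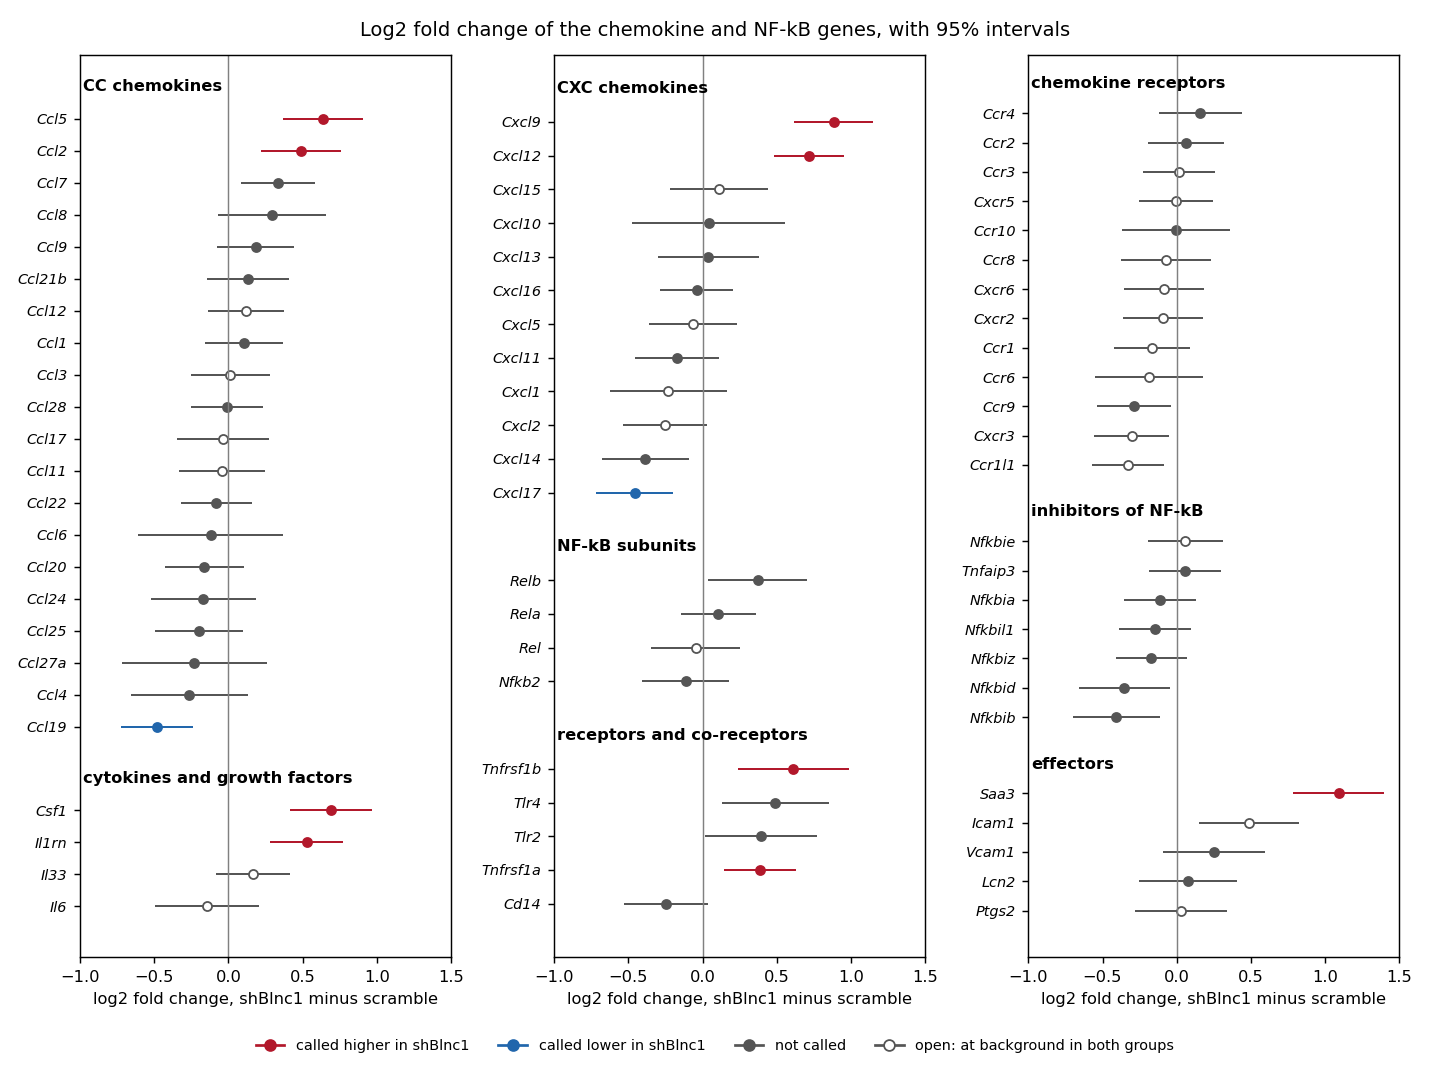
Log2 fold change, shBlnc1 minus scramble (x axis), of the 70 genes grouped by role, with lines for 95% intervals from limma and open points for genes at background in both groups. The intervals of the 9 genes called higher lie right of 0 and those of the 2 called lower lie left of it, which the call itself requires. Intervals of some uncalled genes, among them Ccl7, Tlr4 and Cxcl14, exclude 0 too. No chemokine receptor, NF-kB subunit or gene grouped by name as an NF-kB inhibitor was called.

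Of the 20 CC chemokines, 2 were higher in shBlnc1 cells, 1 was lower and 17 were not called (15% called, beside 18.5% of all genes). Ccl5, an attractant of T cells and monocytes, read 5.61 and 5.51 in shBlnc1 cells, against 5.01 and 4.84 in scramble cells. Both shBlnc1 arrays lay above both scramble arrays, a 1.55-fold rise (limma adjusted p = 0.0104). That p was 0.0766 without shBlnc1 replicate 1 and 0.0536 without replicate 2. Ccl2, a major monocyte attractant, read 5.17 and 5.14 in shBlnc1 cells, against 4.57 and 4.77 in scramble cells. Its groups did not overlap either, and the difference was 0.49 log2 units (limma adjusted p = 0.0261). For Ccl2 the adjusted p was 0.134 and 0.127 without shBlnc1 replicates 1 and 2, and 0.0718 without scramble replicate 1. After quantile normalization the adjusted p was 0.0708 for a difference of 0.37 log2 units.

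Ccl19, which guides T cells and dendritic cells to lymph nodes, was the CC chemokine called lower. It read 3.15 and 3.20 in shBlnc1 cells, against 3.65 on both scramble arrays, which is 1.39-fold lower (limma adjusted p = 0.0186). The adjusted p was 0.121 and 0.0991 without shBlnc1 replicates 1 and 2. These are low values, near the background of 2.55.

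Among the CC chemokines that were not called, the 2 brightest were Ccl27a, a skin T cell attractant, and Ccl9, a monocyte attractant of rodents. Ccl27a read 4.36 and 3.87 in shBlnc1 cells, against 4.12 and 4.57 in scramble cells, and the arrays interleaved. Its brightest probe set can detect several transcripts or genes, and its 4 probe sets spread from a log2 fold change of -0.59 to 0.19. The probe set at -0.59 read 3.69 and 3.87 in shBlnc1 cells, against 4.39 and 4.35 in scramble cells, and passed when probe sets were tested singly (limma adjusted p = 0.0139). Ccl9 read 3.96 and 4.13 in shBlnc1 cells, against 3.88 and 3.84 in scramble cells, a log2 fold change of 0.18 (adjusted p = 0.277). Ccl7, a monocyte attractant encoded beside Ccl2, missed the threshold, with a log2 fold change of 0.33 (adjusted p = 0.0662). With each array centred on its median, its adjusted p was 0.0381. The 15 CC chemokines other than the called ones, Ccl27a and Ccl9 read between 1.68 and 3.95, and 4 of them (Ccl11, Ccl12, Ccl17 and Ccl3) were at background in both groups.

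Of the 12 CXC chemokines, 2 were higher, 1 was lower and 9 were not called (25% called, beside 18.5% of all genes). Cxcl9, an interferon-induced attractant of activated T cells (Entrez Gene 17329), read 5.25 and 5.13 in shBlnc1 cells, against 4.38 and 4.24 in scramble cells. The groups were apart by more than either pair of replicates, with a 1.84-fold rise (limma adjusted p = 0.0030). Its adjusted p was at most 0.0267 over the 11 alternatives that give 1 value per gene. Cxcl10, another interferon-induced chemokine that binds the same receptor, read 4.96 and 5.08 in shBlnc1 cells, against 4.63 and 5.33 in scramble cells. Its scramble arrays stood on both sides of the shBlnc1 arrays, and its log2 fold change of 0.04 had a 95% interval of -0.47 to 0.55 (adjusted p = 0.918). Cxcl11, the third ligand of that receptor, read 2.67 and 2.49 in shBlnc1 cells, against 2.83 and 2.67 in scramble cells, with an adjusted p of 0.349. The difference in response between Cxcl9 and the other two was not tested.

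Cxcl12, which keeps blood progenitors in their niche and is made by stromal cells (Entrez Gene 20315), was the brightest gene of all 70. It read 8.74 and 8.76 in shBlnc1 cells, against 8.02 and 8.05 in scramble cells. Replicates differed by far less than the groups, and the rise was 1.64-fold (limma adjusted p = 0.00438; 0.0342 and 0.0411 without shBlnc1 replicates 1 and 2). A dimmer probe set of Cxcl12, also above background, read 4.74 and 5.12 in shBlnc1 cells, against 4.83 and 4.98 in scramble cells, a difference of 0.02 log2 units. With the mean of all 3 probe sets, one of them at background, Cxcl12 had a log2 fold change of 0.19 (adjusted p = 0.17).

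Cxcl17, a mucosal chemokine, was called lower. It read 2.97 and 2.82 in shBlnc1 cells, against 3.32 and 3.39 in scramble cells, a 1.37-fold difference close to background (limma adjusted p = 0.0284). The adjusted p was 0.0855 and 0.19 without shBlnc1 replicates 1 and 2, and 0.0675 without scramble replicate 2. Cxcl14, an attractant that brown fat is known to secrete, read 3.11 and 2.96 in shBlnc1 cells, against 3.31 and 3.52 in scramble cells, and was not called (adjusted p = 0.0684). Without scramble replicate 1 its adjusted p was 0.0483, and its other probe set was at background. Cxcl16, the transmembrane ligand of Cxcr6, read 3.76 and 3.83 in shBlnc1 cells, against 3.80 and 3.87 in scramble cells, so the groups overlapped. Cxcl1, Cxcl2, Cxcl5 and Cxcl15, ligands that attract neutrophils, were at background in both groups.

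**Figure D2:**
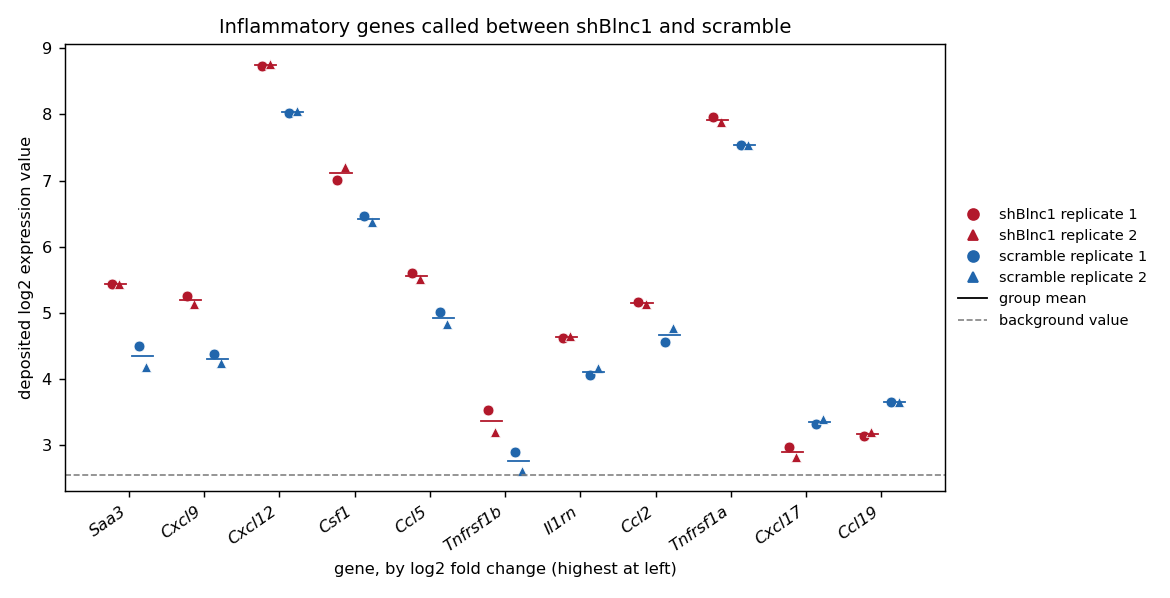
Deposited log2 expression value (y axis) of the 11 called genes on each array, with shBlnc1 to the left of scramble for each gene, lines for group means and a dashed line at the background value of 2.55. The 2 shBlnc1 arrays lie above both scramble arrays for the 9 genes called higher and below them for Cxcl17 and Ccl19.

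None of the 13 measured chemokine receptors was called by limma, and 9 of them were at background in both groups. The log2 fold changes ran from -0.33 (Ccr1l1) to 0.16 (Ccr4), and the lowest adjusted p was 0.0624 (3 of the 13 had an unadjusted p under 0.05). Of all genes, 18.5% passed the stricter adjusted threshold, so at least that share had an unadjusted p under 0.05. The exact unadjusted share was not counted, so the receptors cannot be set against it. Ccr9, a gut-homing receptor, read 2.52 and 2.63 in shBlnc1 cells, against 2.85 and 2.89 in scramble cells (adjusted p = 0.0951). Its brightest probe set can detect several transcripts or genes. Ccr10 read 2.68 and 2.74 in shBlnc1 cells, against 2.92 and 2.50 in scramble cells, and the groups overlapped. Ccr2, the receptor of Ccl2, read 2.68 and 2.55 in shBlnc1 cells, against 2.59 and 2.51 in scramble cells, at the edge of background. Cxcr3, the receptor of Cxcl9, was at background in both groups. With an eBayes trend Ccr1l1 had an adjusted p of 0.0433, although every value was at background.

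Of the 5 other inflammatory receptors and co-receptors, Tnfrsf1a and Tnfrsf1b were called higher in shBlnc1 cells (40%, beside 11.4% of all genes). Tlr2, Tlr4 and Cd14 were not called. Tnfrsf1a, the widely expressed receptor that carries a death domain, read 7.96 and 7.88 in shBlnc1 cells, against 7.54 and 7.53 in scramble cells. The groups did not overlap and the rise was 1.31-fold (limma adjusted p = 0.0377). That call was the weakest of the 11: its adjusted p was 0.206 and 0.147 without shBlnc1 replicates 1 and 2, 0.0739 and 0.0716 without scramble replicates 1 and 2, and 0.0675 after quantile normalization. Tnfrsf1b, the receptor found mostly on immune and endothelial cells, read 3.54 and 3.20 in shBlnc1 cells, against 2.90 and 2.61 in scramble cells. It rose 1.53-fold (limma adjusted p = 0.0355), with adjusted p of 0.187 and 0.0503 without shBlnc1 replicates 1 and 2 and 0.0958 without scramble replicate 2. By its dimmer probe set the log2 fold change was -0.12. Averaging both probe sets gave 0.25 (adjusted p = 0.248).

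Tlr4, the receptor for bacterial lipopolysaccharide, read 4.97 and 5.08 in shBlnc1 cells, against 4.74 and 4.34 in scramble cells. The groups did not overlap, but the adjusted p was 0.0633 for a log2 fold change of 0.49. It was 0.0143 without scramble replicate 1, 0.0427 with each array centred on its median and 0.0241 with the mean of both probe sets, whose log2 fold changes were 0.49 and 0.37. Tlr2, which detects bacterial lipoproteins, read 3.41 and 3.03 in shBlnc1 cells, against 2.70 and 2.95 in scramble cells (log2 fold change 0.39, adjusted p = 0.131). Cd14, the co-receptor of Tlr4, read 2.92 and 3.06 in shBlnc1 cells, against 3.33 and 3.14 in scramble cells, a log2 fold change of -0.24 (adjusted p = 0.191).

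None of the 4 NF-kB subunits was called by limma, and 1 of them had an unadjusted p under 0.05. Of all genes, 18.5% passed the stricter adjusted threshold, and the share at the unadjusted one, at least as large, was not counted. Rela, which encodes the p65 subunit of the classical pathway, read 7.28 and 7.27 in shBlnc1 cells, against 7.23 and 7.11 in scramble cells. Its log2 fold change of 0.11 had a 95% interval of -0.14 to 0.35 (limma adjusted p = 0.512). Nfkb2, the precursor of the p52 subunit of the alternative pathway, read 3.724 and 3.985 in shBlnc1 cells, against 4.004 and 3.934 in scramble cells, and the groups overlapped. Relb, the partner of p52, read 3.68 and 3.49 in shBlnc1 cells, against 3.06 and 3.37 in scramble cells (log2 fold change 0.37, adjusted p = 0.109). Without scramble replicate 2 the log2 fold change of Relb was 0.52 and its adjusted p 0.0422. Rel, the subunit typical of lymphocytes, was at background in both groups.

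The 7 genes grouped by name as inhibitors, several of them direct NF-kB targets, were not called by limma either (2 of 7 had an unadjusted p under 0.05). A negative log2 fold change was seen for 5 of the 7: Nfkbia, Nfkbib, Nfkbid, Nfkbil1 and Nfkbiz. Not all of these only restrain NF-kB (see Nfkbiz below), so the count is not one of inhibitors alone. For comparison, 18.5% of all genes passed the stricter adjusted threshold, and the share at the unadjusted one, at least as large, was not counted. The median log2 fold change over all genes was -0.04. Nfkbia, which encodes IkB alpha and is switched on by NF-kB itself, read 7.22 and 7.15 in shBlnc1 cells, against 7.32 and 7.28 in scramble cells. Its log2 fold change was -0.12, with a 95% interval of -0.35 to 0.12 (limma adjusted p = 0.464). Nfkbiz, a nuclear IkB protein that directs a subset of NF-kB targets, read 6.11 and 6.16 in shBlnc1 cells, against 6.32 and 6.29 in scramble cells (adjusted p = 0.27). Tnfaip3, the ubiquitin-editing enzyme A20 that ends NF-kB signalling, read 5.86 and 5.89 in shBlnc1 cells, against 5.86 and 5.78 in scramble cells (log2 fold change 0.05, adjusted p = 0.753). Over these 3 genes the 95% intervals reached at most from -0.40 to 0.29. Nfkbib, encoding IkB beta, read 3.87 and 3.61 in shBlnc1 cells, against 4.11 and 4.19 in scramble cells (log2 fold change -0.41, adjusted p = 0.0592). Its adjusted p was 0.0439 after quantile normalization, and its probe set can detect several transcripts or genes. Nfkbid and Nfkbil1 had log2 fold changes of -0.35 and -0.15 (adjusted p = 0.1 and 0.356), and Nfkbie was at background.

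Of the 4 cytokine and growth factor genes, 2 were called higher (50%, beside 11.4% of all genes). The other 2, Il6 and Il33, were at background in both groups. Csf1, the growth factor on which macrophages depend, read 7.01 and 7.20 in shBlnc1 cells, against 6.47 and 6.37 in scramble cells. The groups were clearly apart, with a 1.61-fold rise (limma adjusted p = 0.00818; 0.069 without shBlnc1 replicate 2). The 3 dimmer probe sets of Csf1, all above background, had log2 fold changes of -0.17, 0.06 and 0.26, and with the mean of all 4 the log2 fold change was 0.21 (adjusted p = 0.263). Il1rn, a decoy ligand that blocks the interleukin-1 receptor, read 4.63 and 4.65 in shBlnc1 cells, against 4.06 and 4.16 in scramble cells. It rose 1.44-fold (limma adjusted p = 0.0147; 0.0841 and 0.102 without shBlnc1 replicates 1 and 2). A second probe set of Il1rn read 3.65 and 3.77 in shBlnc1 cells, against 3.27 and 3.22 in scramble cells, a log2 fold change of 0.46, and the third had 0.07.

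**Figure D3:**
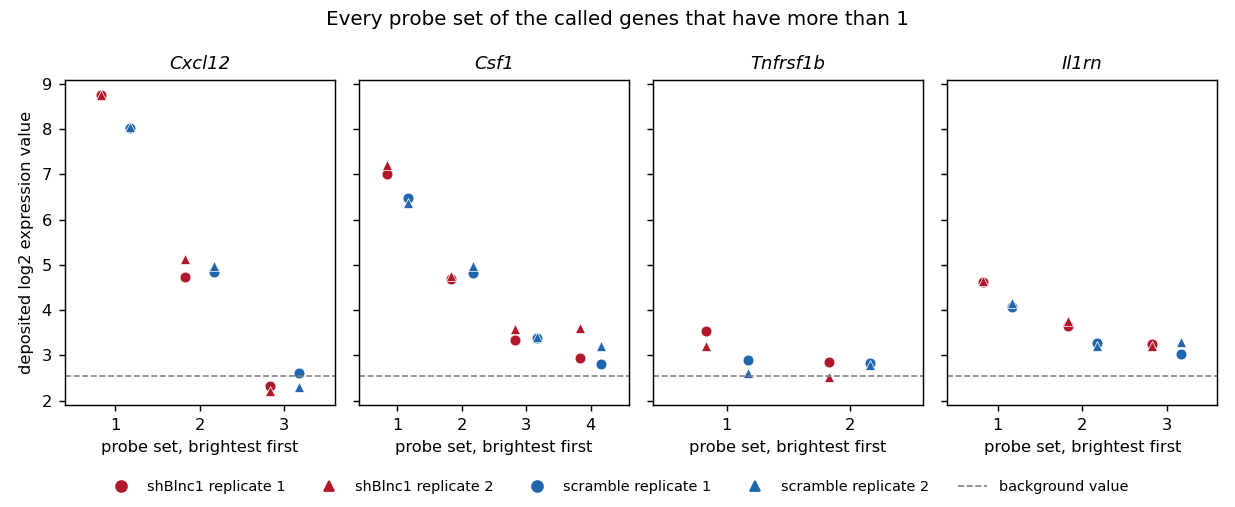
Deposited log2 expression value (y axis) on each array for every single-symbol probe set of the 4 called genes that have more than 1, brightest at left (x axis), with a dashed line at the background value. The brightest probe set separates the groups for each gene, a second one places shBlnc1 above scramble only for Il1rn, and the second probe sets of Cxcl12, Csf1 and Tnfrsf1b have log2 fold changes of 0.02, -0.17 and -0.12.

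Among the 5 effectors, only Saa3 was called (20%, beside 18.5% of all genes), and it had the largest change of the 70 genes. Saa3 encodes a serum amyloid A protein that mouse fat cells and macrophages make during inflammation (Entrez Gene 20210). It read 5.43 on both shBlnc1 arrays, against 4.49 and 4.19 in scramble cells. The gap between groups was larger than that between the scramble replicates, and the rise was 2.13-fold (limma adjusted p = 0.00252). Its adjusted p was at most 0.0198 over the 11 alternatives with 1 value per gene. Lcn2, an iron-scavenger binding protein released with Saa3 by inflamed fat cells, read 6.17 and 6.21 in shBlnc1 cells, against 6.29 and 5.94 in scramble cells, and the groups overlapped (log2 fold change 0.08, adjusted p = 0.745). The adhesion molecule gene Vcam1 read 4.86 and 4.69 in shBlnc1 cells, against 4.35 and 4.70 in scramble cells (adjusted p = 0.265). Icam1, the other adhesion molecule, read 2.57 and 2.23 in shBlnc1 cells, against 1.84 and 1.99 in scramble cells (log2 fold change 0.48, adjusted p = 0.054). Its adjusted p was 0.0359 with median centring and 0.037 after quantile normalization, though both group means are at background. Ptgs2, the inducible cyclooxygenase, was at background.

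The promoter sequences printed above can be read against these values. RefSeq windows were found for 53 of the 70 genes, and 18 of the 53 (34.0%) held the NF-kB consensus within the 250 bases before an annotated start, against 8.23% of the 27025 genes in the promoter table. Per window the shares were 30.3% and 7.25%. Of the 11 called genes, 8 had a window, while Ccl2, Ccl5 and Cxcl17 had none and were not scanned. Of the 18 genes, 10 were above background in a group, and 1 of them, Csf1, was called. Of the 23 genes above background with no match, 7 were called, 6 higher and 1 lower, beside 24% of all genes above background; the difference between 1 of 10 and 7 of 23 was not tested. Nfkbia, with a match 29 bases before its start, and Cxcl10, with matches beginning 159 and 104 bases before its start (the second stretch of capitals holds overlapping matches), were not called. The median log2 fold change was 0.05 over these 10 genes and 0.06 over the 23 genes above background with no match. Cxcl9 and Saa3, the 2 genes with the largest rises, had no match in this window. A match shows only that these letters are present.

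Genes of the same pathways that are not part of the 70 gave the setting. Of 45 measured IkB kinase and adaptor genes, 6 were higher and 3 lower in shBlnc1 cells (20%), with a median log2 fold change of 0.04. All 45 were above background in a group, where 24% of genes were called, beside 18.5% of all genes. Tnip1, a partner of A20 that restrains NF-kB, read 6.51 and 6.33 in shBlnc1 cells, against 7.23 and 7.13 in scramble cells, 1.69-fold lower (limma adjusted p = 0.00581). Irak3, a brake on Toll-like receptor signalling, fell by 0.58 on the log2 scale (limma adjusted p = 0.0143). Ikbke, an IkB kinase-related kinase of the interferon pathway, was 1.67-fold higher, and Tax1bp1, an adaptor of A20, 1.47-fold higher (limma adjusted p = 0.00517 and 0.0196). The numbers called were 2 higher and 5 lower after quantile normalization, and 1 in each direction without either shBlnc1 replicate.

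Of 53 other inflammatory cytokines and receptors, 8 were higher and 1 was lower (17%, beside 18.5% of all genes), with a median of -0.06. By direction 15.1% were higher and 1.89% lower, against 11.4% and 7.18% of all genes. The 4 largest changes were rises in receptor chains. Il1r1, the signalling receptor for interleukin-1, read 6.08 and 6.06 in shBlnc1 cells, against 5.02 and 5.28 in scramble cells (1.89-fold, limma adjusted p = 0.00383). Its partner chain Il1rap was 1.94-fold higher, and Il6st, the shared chain of the interleukin-6 family receptors, 1.63-fold higher (limma adjusted p = 0.00524 and 0.00744). Tlr3, a sensor of double-stranded RNA, was 1.64-fold higher (limma adjusted p = 0.0132), by a probe set that can detect several transcripts or genes. The single lower gene was Tnfrsf11a, the receptor RANK, whose mean in shBlnc1 cells was at background. With the mean of all probe sets 3 genes of this list were higher, and 4 and 2 were higher without shBlnc1 replicates 1 and 2.

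Of 32 other effector genes (acute phase, complement, adhesion and further effectors), 9 were higher and 3 lower (37.5%, beside 18.5% of all genes), with a median of 0.01. The further effectors include Ptgis and Ptges, called higher, and Sod2, called lower. Of the list, 28.1% were higher and 9.38% lower, against 11.4% and 7.18% of all genes. Cfb, complement factor B, read 5.95 and 5.96 in shBlnc1 cells, against 4.35 and 4.34 in scramble cells, 3.06-fold higher (limma adjusted p = 0.000338). C1ra and C1s1, the proteases of the first complement component, were 2.45-fold and 2.41-fold higher, and Ptgis, prostacyclin synthase, 2.83-fold higher (limma adjusted p = 0.00115, 0.000724 and 0.00098). The probe set of C1s1 can detect several transcripts or genes. The 3 lower genes, named after their values were seen, were Cfi, C4b and Sod2, at 1.46, 1.37 and 1.29-fold, and the shBlnc1 mean of Cfi was at background. Sod2 is a mitochondrial enzyme and a known NF-kB target. Without shBlnc1 replicate 1 or 2, 6 genes of this list were higher, and 1 or 0 lower. Liver transcripts moved with the groups in the other direction: 6 of 7 hepatocyte markers were called lower, and their summed linear level was 57.1 to 77.9 on the shBlnc1 arrays, against 249 to 255 on the scramble arrays. Their part in the acute phase values was not tested.

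Among 20 other chemokine-related genes, 2 were higher and 1 was lower (15%, beside 18.5% of all genes), with a median of -0.09. Cmtm3, a membrane protein of the chemokine-like MARVEL family, read 6.06 and 5.75 in shBlnc1 cells, against 4.38 and 4.24 in scramble cells, 3.03-fold higher (limma adjusted p = 0.000901). Its relative Cmtm6 was 1.45-fold higher, and the chemokine scavenging receptor Ackr2 1.42-fold lower (limma adjusted p = 0.0198 and 0.0243).

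**Figure D4:**
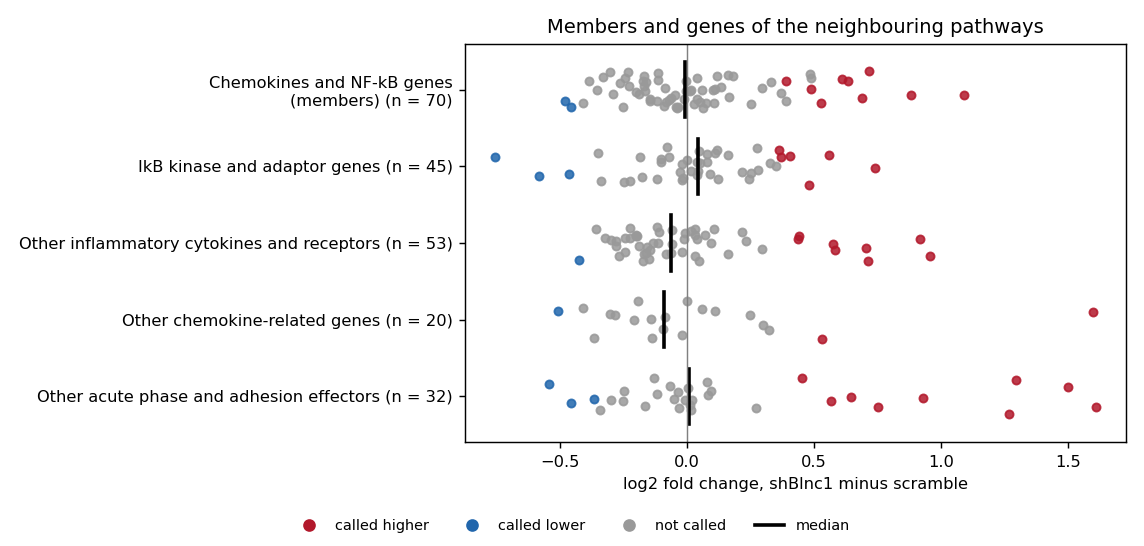
Log2 fold change, shBlnc1 minus scramble (x axis), of the 70 chemokine and NF-kB genes (members) and of 4 lists of genes from the same pathways, with 1 point per gene, coloured by call, and black bars for medians. Medians lie between -0.09 and 0.04 in all 5 groups, and the called rises reach further from 0 than the called falls in each list except that of the IkB kinase and adaptor genes.

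Many leukocyte markers were at background, and some were not. Of 15 macrophage markers, 7 were above background in a group, and Lyz2, Itgam, Mrc1, Cd163, C1qa, C1qb, Aif1 and Marco were at background in both groups. The summed linear level of the 15 was 98.2 to 99.9 on the shBlnc1 arrays, against 95.6 to 101 on the scramble arrays. With all 15 at the background value the sum would be 87.6, so most of it is floor and it says little about macrophage transcripts. Adgre1 was called higher, at 3.82 and 4.14 in shBlnc1 cells against 3.31 and 3.25 in scramble cells (limma adjusted p = 0.0133), and Tyrobp lower (limma adjusted p = 0.0196). Csf1r, the receptor of Csf1, read 4.35 and 4.17 in shBlnc1 cells, against 4.12 and 4.22 in scramble cells. Of 5 T cell markers 4 were above background, the brightest being Cd3e at 4.324 and 4.376 in shBlnc1 cells, against 4.747 and 4.596 in scramble cells, and Cd4 at 4.002 and 4.157 in shBlnc1 cells, against 4.107 and 4.393 in scramble cells. Laptm5, a pan-leukocyte marker, read 3.484 and 3.759 in shBlnc1 cells, against 4.005 and 3.559 in scramble cells. These levels were near those of several chemokines described above, and their part in the chemokine values was not tested. Ptprc, which all leukocytes carry, was at background in both groups, and none of the pan-leukocyte, T cell, neutrophil and mast cell markers (4, 5, 6 and 5 measured) was called by limma. Of 3 B cell markers, Ms4a1 was called lower, with a shBlnc1 mean at background. Neither Cd79b (0.21 on the log2 scale) nor Cd79a (-0.18, at background in both groups) passed. Of 8 endothelial markers, Tek alone was called, 1.59-fold higher. Esam (-0.33), Pecam1 (-0.23) and Egfl7 (-0.13) read lower in shBlnc1 cells by group mean, but none of them passed. Cdh5, Tie1, Vwf and Emcn were at background. The endothelial median was -0.11.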

How the data were processed

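RNA of the 4 samples was labelled from 250 ng of total RNA and hybridised to Affymetrix arrays with several probes per transcript (a probe set). The log2 expression value of each probe set on each array was used as the authors deposited it. Per the submitters' processing notes, the software included affy, RMA and limma, without versions or roles, and how the arrays were normalized is not stated there. That the scale is log2 was read from the range of the values, 1.05 to 12.36.

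Groups were compared with limma 3.58.1 in R 4.3.3 (lmFit, eBayes, two-sided) on 45037 probe sets, with group as the sole term. Benjamini-Hochberg adjustment ran over 17097 genes, each taken by its brightest single-symbol probe set, with a threshold of 0.05. Residual and prior degrees of freedom were 2 and 4.93, and the number of arrays limits the precision. The platform annotation gives 28898 probe sets 1 symbol, 551 several and 15588 none. Background is the highest of 22 antigenomic control probe sets on any array. The fit was tested on simulated data. Its noise model was changed after the first version recovered fewer of the shifted genes than the stop it was given, so that test gives no firm statement of power. Figures used matplotlib 3.10.9.

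The genes and lists were chosen with earlier results of these data known. By rule, values per array are given for called genes and for the 2 brightest uncalled genes above background of each role, and up to 4 called genes with the largest change are named per pathway list. Further genes of the 70, and the called marker genes, were named after their values were seen. Alternatives were median centring of the arrays, quantile normalization, a filter that drops the dimmest 40 percent of genes, a robust or a trended eBayes, averaging a gene's probe sets, testing probe sets singly, a replicate block, and leaving out each array in turn. A lone array was assumed to vary like the other group.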

Additional observations from a re-analysis of the deposited data

How the results depend on the processing

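Of the 70 genes, 9 were called higher and 2 lower. Quantile normalization, median centring, a robust or trended eBayes, averaged probe sets, probe sets tested singly and the replicate block gave 8 to 12 higher and 2 or 3 lower. Without the dimmest 40 percent of genes 10 were higher and 4 lower, of 33 tested. Leaving out each array in turn gave 3 to 8 higher and 0 to 3 lower. Without shBlnc1 replicates 1 and 2, 4 and 3 genes were called, all of them among the 11, and 7.21% and 6.14% of all genes were called. Over all genes, 1941 were higher and 1228 lower, and with an array left out 795 to 1681 and 255 to 1168. Tested singly, 3049 of 28898 probe sets were higher and 1739 lower. After quantile normalization 1514 genes were higher and 1564 lower, and after median centring 2383 and 844, with the median over all genes at -0.03 and 0.03 in place of -0.04. The replicate numbers mark no shared culture in the labels, and deviations of same-numbered arrays correlated at r = 0.04 over probe sets. The replicate block called the same 11 genes, and 1953 higher and 1226 lower genes over all.

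No called gene changed sign in an alternative, while 27 of the uncalled genes did, with adjusted p of 0.141 or more there. After quantile normalization the log2 fold change was 0.0209 for Ccl11, 0.0688 for Ccr10, -0.0908 for Cxcl10, -0.0806 for Lcn2 and -0.11 for Tnfaip3. After median centring it was 0.0200 for Ccl11, 0.0594 for Ccr10 and 0.0254 for Cxcl16. With averaged probe sets it was -0.0419 for Ccr2, 0.0591 for Cxcl11 and -0.0572 for Tnfaip3. With an array left out in turn it ran from -0.16 to 0.0705 for Ccl11, -0.48 to 0.0155 for Ccl27a, -0.21 to 0.20 for Ccr10, -0.0032 to 0.13 for Ccr2, -0.31 to 0.39 for Cxcl10, -0.10 to 0.26 for Lcn2 and -0.24 to 0.0165 for Nfkb2. The cause of these shifts was not tested.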

Other observations

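Members that neighbour each other in RefSeq's gene order did not all have like values. Cxcl9 and Cxcl10 lie on chromosome 5 with 1 other gene between them, and their log2 fold changes were 0.88 (95% interval 0.62 to 1.14) and 0.04 (-0.47 to 0.55). In the run of 6 CC chemokine genes on chromosome 11 that begins with Ccl2, the log2 fold changes were 0.49 for Ccl2, 0.33 for Ccl7, -0.04 for Ccl11, 0.12 for Ccl12, 0.29 for Ccl8 and 0.10 for Ccl1, with Ccl11 and Ccl12 at background. The differences between neighbours were not tested.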
